A study of Mus musculus with 9 samples.

Results

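Expression of 7 genes of the small leucine-rich proteoglycan family, Dcn, Bgn, Lum, Kera, Fmod, Ogn and Chad, was followed in mouse cornea, lens and tendon. All probe sets that the platform annotation assigns to 1 of these genes alone were taken, which gave 10 of the 12488 probe sets on the array. Bgn, Fmod and Ogn had 2 probe sets each and the other genes 1. RNA was hybridised to 9 Affymetrix mouse arrays: 3 of cornea from adult mice 7 weeks old, 2 of cornea at postnatal day 10 (P10), and 2 each of adult lens and of adult flexor digitorum longus tendon, also at 7 weeks. The corneas were trimmed of the limbus and scraped to lower the share of epithelium, which removed it in part. Each array carried an independent RNA preparation, and the lens and tendon preparations were pools. No treatment or engineered allele is named for any group, and the labels used here give no strain. The cornea arrays had also served an earlier study, so that hybridisation batch and tissue cannot be told apart in any comparison of cornea with lens or tendon.

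Small leucine-rich proteoglycans are secreted proteins built around a curved stack of leucine-rich repeats, with which they bind collagen fibrils and limit fibril diameter. Decorin (Dcn) and biglycan (Bgn) belong to class I and carry chondroitin or dermatan sulfate. Lumican (Lum), keratocan (Kera) and fibromodulin (Fmod) belong to class II and can carry keratan sulfate, which in the corneal stroma helps to keep the fibrils thin and evenly spaced and the tissue transparent. Osteoglycin, or mimecan (Ogn), is a class III member found as a keratan sulfate proteoglycan in the cornea, and chondroadherin (Chad) is a class IV protein of cartilage and tendon that binds collagen and integrin.

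All levels are the deposited expression index of a probe set, in arbitrary units, and levels of different probe sets are not on a common scale. On adult cornea replicate 1 the 3′ to 5′ signal ratio of the Gapdh control was 2.25, against 0.831 to 1.04 on the other 8 arrays, so this array stood apart in RNA quality. Summed epithelial markers were highest in cornea and summed lens markers in lens. The 9 epithelial genes summed to between 21529 and 24462 in adult cornea, 23739 and 24635 at P10, 2590 and 3181 in lens, and 659 and 1408 in tendon. The 7 lens genes summed to 35443 to 36691 in lens, 4456 to 11300.0 in cornea of both ages and 448 to 482 in tendon. Skeletal muscle genes, 9 in all, summed to 40921 to 48851 on the tendon arrays and to at most 1009 elsewhere. Only 3 of 7 tendon markers were on the array (Scx, Tnc and Egr1), and they summed to 648 to 723 in tendon and to at most 243 elsewhere. In such bulk samples fewer cells of a type and less RNA per cell cannot be told apart.

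Of the 10 probe sets, 9 passed the filter on low values and were tested. Dcn, Bgn, Lum and Kera were lowest in lens. Dcn, Bgn, Fmod and Chad were highest in tendon, Lum and Kera at P10, and Ogn was high in lens and tendon and lowest in adult cornea. At P10 the indices of 8 of the 9 tested probe sets lay above those of every adult cornea, where 31.6% of all probe sets did not overlap between the ages in either direction, and Chad was the exception. Fold changes below are differences of group means on the scale log2(index + 16), which understates changes of low values. Tests are limma's moderated test with Benjamini-Hochberg adjustment over 8154 probe sets within a comparison, and a difference was called at an adjusted p under 0.05. The plot of the indices on every array shows all 10 probe sets.

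**Figure D1:**
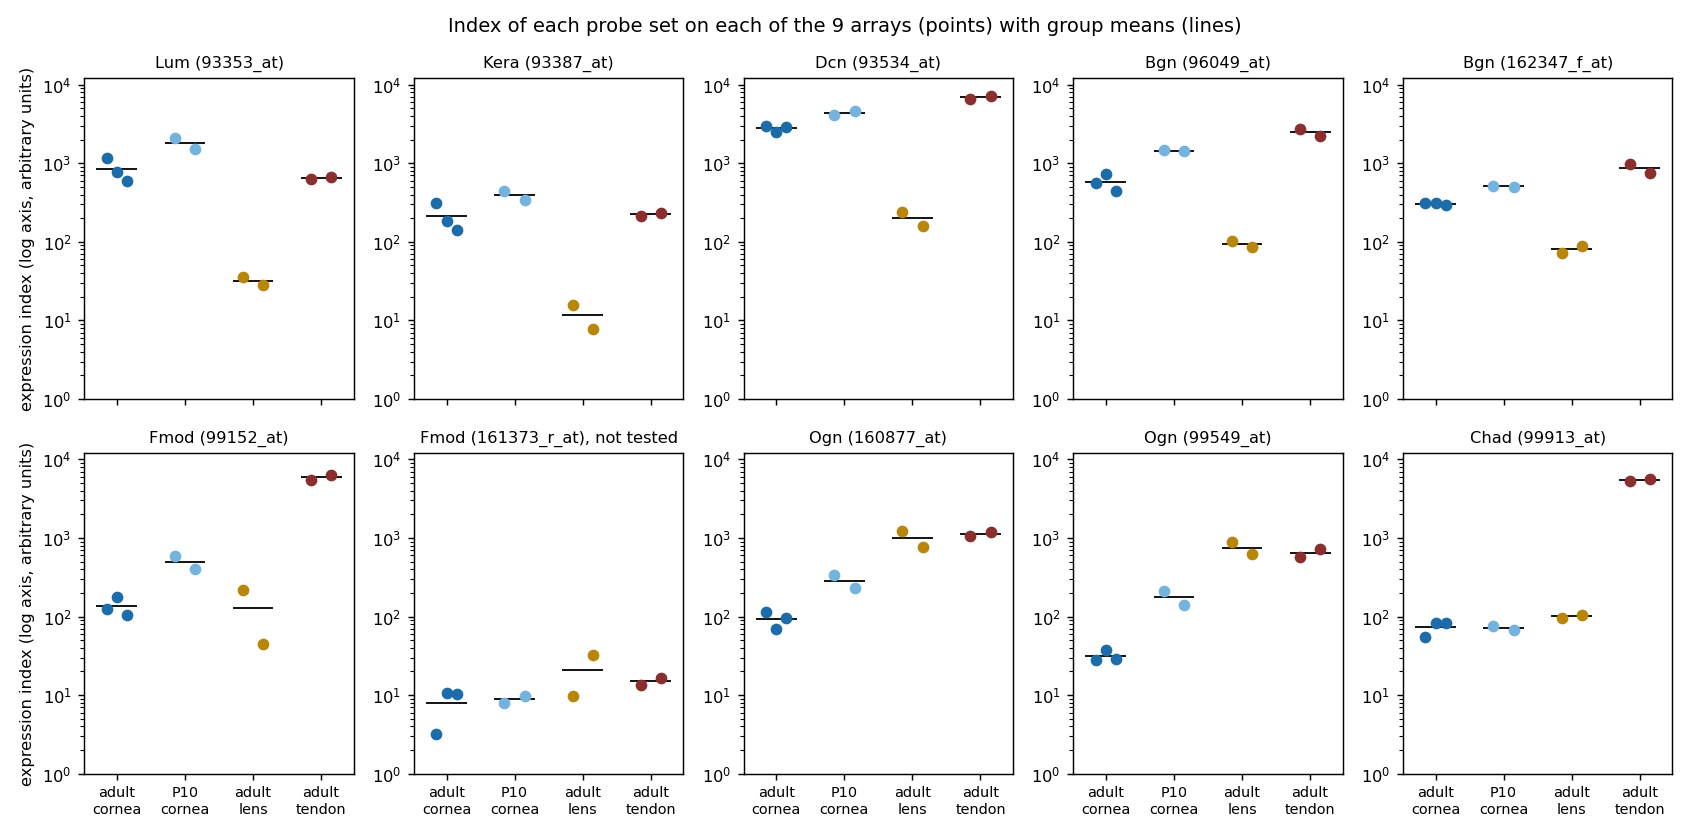
Deposited expression index (arbitrary units, log axis) of the 10 probe sets of the 7 genes on each of the 9 arrays. Each point is 1 array and each line the group mean, for adult cornea (n = 3), P10 cornea (n = 2), adult lens (n = 2) and adult tendon (n = 2). Lum, Kera, Dcn and Bgn are lowest in lens. Fmod (99152_at) is highest in tendon and next in P10 cornea, and Chad is high in tendon alone.

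Dcn (probe set 93534_at) had indices of 2989.9, 2484 and 2922 in the adult corneas, 4084 and 4601 at P10, 242 and 157 in lens, and 6588 and 7248 in tendon. No 2 groups overlapped, and the order was lens, adult cornea, P10 cornea, tendon. The highest index of any probe set on the tendon arrays was 8130.2 and 8924, so Dcn lay near the top of the range there, and compression at the top of the scale was not tested. Dcn was 13.3-fold higher in adult cornea than in lens (log2 3.73 ± 0.19 SE, limma adjusted p = 4.16e-07) and 2.47-fold lower than in tendon (log2 -1.30, limma adjusted p = 0.000420). The P10 cornea was 1.59-fold below tendon (limma adjusted p = 0.0368), a call lost in 5 of 9 fits that left out 1 array. Adult and P10 cornea differed by log2 -0.63 without passing the test (limma adjusted p = 0.106). This difference passed with quantile normalization (limma adjusted p = 0.0405) and without either lens array (limma adjusted p = 0.0252 and 0.0244).

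Bgn encodes the closest relative of decorin. Its probe set 96049_at gave 569, 724 and 449.7 in adult cornea, 1462 and 1422 at P10, 103 and 86.4 in lens, and 2706 and 2235 in tendon. The groups followed the same order as for Dcn and again did not overlap. Bgn fell 2.49-fold from P10 to adult cornea (log2 -1.31 ± 0.22 SE, limma adjusted p = 0.00808), and the call was lost without P10 replicate 1 or 2 (limma adjusted p = 0.0974 and 0.0888). A second probe set, 162347_f_at, read 315, 312 and 293 in adult cornea, 518 and 498 at P10, 72.3 and 88.1 in lens, and 973 and 742 in tendon. It had the same order of groups with smaller differences, and its age difference of log2 -0.70 did not pass (limma adjusted p = 0.0739). Between adult cornea and tendon both probe sets were lower in cornea, 4.22-fold and 2.68-fold (limma adjusted p = 4.34e-05 and 0.000228). Between P10 cornea and tendon the gap was 1.70-fold and 1.65-fold (limma adjusted p = 0.0390 and 0.0268). The first of these calls was lost in 5 of 9 fits without 1 array and under quantile normalization (log2 -0.35, limma adjusted p = 0.260), the second in 4 of 9. Tendon exceeded lens 22.4-fold and 9.03-fold (limma adjusted p = 3.19e-07 and 1.12e-06).

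Within an array the gap between Dcn and Bgn was compared between tissues, since the index of 1 gene cannot be set against that of another. The log2 index of Dcn exceeded that of Bgn by 1.99 ± 0.50 (SD, n = 5) over the corneas of both ages and by 1.48 ± 0.29 (SD, n = 2) in tendon (two-sided exact permutation p = 0.238). By age, the gap was 2.26 ± 0.46 (n = 3) in adult cornea and 1.58 ± 0.15 (n = 2) at P10 (two-sided exact permutation p = 0.2, where 0.1 is the smallest this design allows). Neither difference was resolved with these numbers of arrays. The adult corneas (1.76 to 2.66) lay above the P10 arrays (1.47 and 1.68) and the tendon arrays (1.28 and 1.69). With quantile normalization the lowest adult cornea (1.84) lay under the higher tendon array (1.86).

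Lum (93353_at), the major keratan sulfate proteoglycan core protein of the stroma with Kera, had indices of 1156, 783 and 595 in adult cornea, 2087 and 1524 at P10, 35.2 and 28.5 in lens, and 631 and 668 in tendon. Both P10 values exceeded all adult values, the lens values were far below all others, and tendon lay within the range of the adult corneas. The lens gap was 17.4-fold for adult cornea (log2 4.12 ± 0.27 SE, limma adjusted p = 1.55e-06) and 37.7-fold for P10 cornea (log2 5.24, limma adjusted p = 1.27e-06). Over 10 other limma settings these ran from log2 3.20 to 4.64 and from 4.27 to 5.77, all called, with the extremes at pseudocounts of 64 and 1. Adult cornea and tendon differed by log2 0.32 (95% interval -0.28 to 0.92, limma adjusted p = 0.403), which leaves room for a difference in either direction. P10 cornea was 2.70-fold above tendon (limma adjusted p = 0.00570), a call lost without P10 replicate 1 (limma adjusted p = 0.0634) or tendon replicate 1 (limma adjusted p = 0.0578). Between ages Lum fell 2.17-fold (log2 -1.12 ± 0.27 SE, limma adjusted p = 0.0465). That call stood close to the threshold: of the 9 fits without 1 array only the fit that dropped adult cornea replicate 1, which had the high Gapdh ratio, kept it (limma adjusted p = 0.0210), and the adjusted p reached 0.439 in the others. It was kept in 4 of 10 other limma settings.

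Kera (93387_at) encodes keratocan, a keratan sulfate proteoglycan used as a marker of corneal stromal cells. It read 311, 183 and 144 in adult cornea, 441 and 345 at P10, 15.8 and 7.69 in lens, and 213 and 236 in tendon. As for Lum, P10 lay above the adult, lens below everything, and both tendon arrays within the adult corneal range. Adult cornea exceeded lens 7.94-fold (log2 2.99 ± 0.29 SE, limma adjusted p = 2.04e-05) and tendon exceeded lens 8.74-fold (limma adjusted p = 2.62e-05). With lens this low the size rests on the pseudocount: the log2 differences ran from 1.82 to 4.06 and from 1.93 to 4.22 over 10 other limma settings, all called. The difference between adult cornea and tendon was log2 -0.14 (95% interval -0.79 to 0.52, limma adjusted p = 0.759), and its sign turned when adult cornea replicate 3 was left out. P10 cornea was log2 0.76 above tendon (limma adjusted p = 0.110), which passed without adult cornea replicate 1 (limma adjusted p = 0.0461), in a fit of those groups alone (limma adjusted p = 0.0112) and with a replicate block (limma adjusted p = 0.0412). The age difference of log2 -0.90 did not pass (limma adjusted p = 0.144), and did so without adult cornea replicate 1 (limma adjusted p = 0.0382). In adult cornea a gene used to mark corneal stroma was thus not resolved from its level in tendon. At P10 both indices lay above those of tendon, without a call. Of 6 listed keratocyte markers, Kera among them, 4 were called higher in adult cornea than in tendon and 1 lower. Aldh3a1 of this list was also counted among the epithelial markers. Over all probe sets 35.0% were called in that comparison in either direction, and 18.9% were lower in adult cornea.

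Lum and Kera are chromosomal neighbours: in the RefSeq annotation of GRCm38.p6, Dcn, Lum, Kera and Epyc follow one another on chromosome 10. Over the 9 arrays the log2 indices of Lum and Kera correlated at r = 0.992, against r = 0.910 for Lum and Dcn and r = 0.936 for Kera and Dcn. The 9 arrays share 4 tissues, so these values describe the pattern over tissues. Within arrays, log2 Lum minus Kera was 2.02 ± 0.14 (SD, n = 5) in cornea and 1.47 ± 0.04 (SD, n = 2) in tendon, without overlap (two-sided exact permutation p = 0.0476, the smallest possible with 21 splits, and 0.127 after adjustment over 8 tests). The promoter of Kera is shown because it is the 1 of the 5 family promoters at hand without any match to the motifs searched. It covers chr10:97606955-97607254 of GRCm38.p6 (plus strand, RefSeq), 250 bases before to 50 after the gene start, and 41.0% of its bases are G or C, against a median of 52.7% over 32851 mouse promoters. Motifs searched on both strands were the TATA box TATAAA (in 13.6% of these promoters), the GC box GGGCGG (35.7%), the E-box CANNTG (72.3%), the AP-1 site TGANTCA (7.81%) and the SMAD box CAGAC (49.6%). Where another promoter is printed, matches are in capitals.
Kera: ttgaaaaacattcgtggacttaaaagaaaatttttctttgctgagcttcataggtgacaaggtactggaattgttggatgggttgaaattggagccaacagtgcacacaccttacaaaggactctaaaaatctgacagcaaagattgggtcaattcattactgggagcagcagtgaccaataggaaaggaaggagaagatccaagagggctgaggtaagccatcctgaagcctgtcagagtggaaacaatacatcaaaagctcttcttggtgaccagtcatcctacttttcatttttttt

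Fmod, the third class II gene, had a different pattern. Fibromodulin is a collagen-binding proteoglycan abundant in tendon, where it takes part in fibril growth. Probe set 99152_at gave 123, 177 and 106 in adult cornea, 588 and 397 at P10, 215 and 45.2 in lens, and 5455 and 6342 in tendon. Tendon stood far above all other arrays, P10 cornea came next, and the adult corneas lay between the lens arrays. Tendon exceeded adult cornea 39.7-fold (log2 -5.31 ± 0.46 SE for cornea minus tendon, limma adjusted p = 1.22e-05), P10 cornea 11.8-fold (limma adjusted p = 0.000596) and lens 49.7-fold (limma adjusted p = 1.01e-05). The P10 cornea was 4.20-fold above lens (limma adjusted p = 0.00702), a call lost without P10 replicate 1 (limma adjusted p = 0.0546). Both lens differences depended in size on the lens arrays: P10 cornea minus lens was log2 3.03 without lens replicate 1 and 1.11 without lens replicate 2, and tendon minus lens 6.59 and 4.68. All 4 were called by limma, and neither full difference was by the methods' t-test.

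The lens arrays disagreed on Fmod. Adult cornea minus lens was log2 0.32 (limma adjusted p = 0.584), and this became 1.28 without lens replicate 1 (limma adjusted p = 0.0116) and -0.63 without lens replicate 2. The fall from P10 to adult cornea was log2 -1.75 ± 0.46 SE and did not pass (limma adjusted p = 0.0684), although the adult and P10 arrays did not overlap. It passed without lens replicate 1 or 2 (limma adjusted p = 0.00627 and 0.00624), since all groups share 1 estimate of the spread, and with a pseudocount of 64 (limma adjusted p = 0.0355), quantile normalization (limma adjusted p = 0.0495) or a fit of the corneas alone (limma adjusted p = 0.0329). The other Fmod probe set, 161373_r_at, lay between 3.17 and 32.0 on all arrays, under the median of each, and was not tested. Its differences had the opposite sign to those of 99152_at in 3 of 6 comparisons, those with lens.

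Set against its class II relatives, Fmod separated tendon from cornea within arrays. Log2 Lum minus Fmod was 2.23 ± 0.51 (SD, n = 5) in cornea and -3.15 ± 0.10 (SD, n = 2) in tendon, a difference of 5.38 or 41.5-fold (two-sided exact permutation p = 0.0476, adjusted 0.127). Log2 Kera minus Fmod differed by 4.83 or 28.5-fold with the same exact permutation p. Corneal and tendon arrays did not overlap in either. With 2 tendon arrays no test here could pass after adjustment. Over the 9 arrays r was 0.355 for Lum and Fmod and 0.897 for Fmod and Chad. In the annotation Fmod lies beside Prelp and Optc, other genes of the family, on chromosome 1. Its promoter is shown as that of the class II gene highest in tendon. It covers chr1:134037004-134037303 (GRCm38.p6, plus strand, RefSeq), with 1 E-box and 2 SMAD boxes in capitals and without a TATA or GC box.
Fmod: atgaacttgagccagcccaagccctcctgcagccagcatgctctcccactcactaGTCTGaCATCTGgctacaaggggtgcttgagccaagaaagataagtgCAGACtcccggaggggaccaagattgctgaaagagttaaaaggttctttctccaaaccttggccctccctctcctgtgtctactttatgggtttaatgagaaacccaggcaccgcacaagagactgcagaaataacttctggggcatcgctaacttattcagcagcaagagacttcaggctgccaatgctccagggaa

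**Figure D2:**
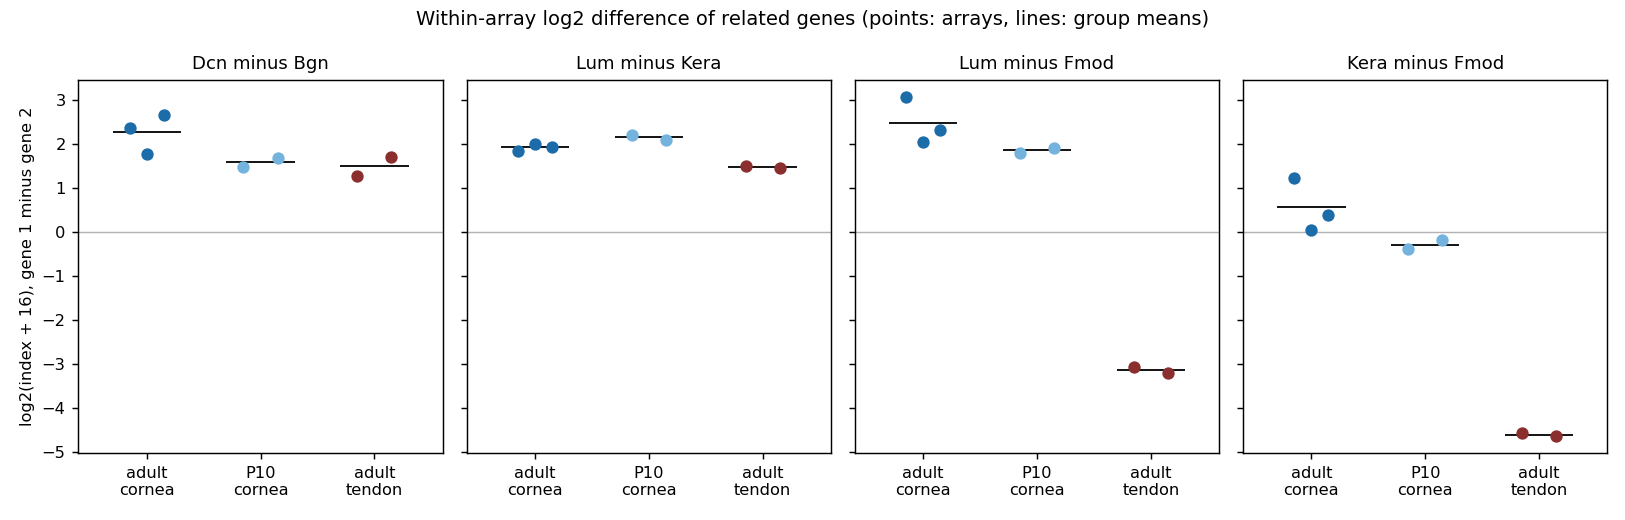
Differences of log2(index + 16) between related genes within each array, for Dcn minus Bgn, Lum minus Kera, Lum minus Fmod and Kera minus Fmod. Each point is 1 array of adult cornea (n = 3), P10 cornea (n = 2) or tendon (n = 2), and each line a group mean. Lum minus Fmod lies between 1.80 and 3.07 in cornea and between -3.22 and -3.08 in tendon.

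Ogn was measured by a pair of probe sets that gave the same picture. Osteoglycin was first known from bone and also occurs in the corneal stroma as mimecan. Probe set 160877_at read 115, 69.8 and 95.3 in adult cornea, 336 and 229 at P10, 1216 and 771 in lens, and 1045 and 1208 in tendon. Probe set 99549_at read 28.1, 37.8 and 28.6 in adult cornea, 214 and 142 at P10, 889 and 617 in lens, and 566 and 728 in tendon. In both, adult cornea was lowest, P10 cornea next, and lens and tendon overlapped. Ogn was thus the only 1 of the 7 genes called higher in lens than in cornea.

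The fall of Ogn from P10 to adult cornea was 2.73-fold by 160877_at (log2 -1.45 ± 0.27 SE, limma adjusted p = 0.0145) and 4.03-fold by 99549_at (log2 -2.01 ± 0.24 SE, limma adjusted p = 0.00181). The call of 99549_at held in all 9 fits without 1 array (limma adjusted p at most 0.0294) and in 10 other limma settings (at most 0.0148), but not by the methods' t-test. The call of 160877_at was lost without P10 replicate 1 or 2 (limma adjusted p = 0.193 and 0.0555) and in a fit of the corneas alone (limma adjusted p = 0.0513). In adult cornea the signal of 99549_at was under the median of every array, so that the fold rests on low values: over 10 other limma settings it ran from log2 -1.33 to -2.44 by age, -3.08 to -4.52 against lens and -2.89 to -4.32 against tendon. Adult cornea lay below lens 9.15-fold and 15.99-fold by the respective probe sets (limma adjusted p = 7.49e-06 and 1.08e-06) and below tendon 10.6-fold and 13.9-fold (limma adjusted p = 5.82e-06 and 1.36e-06). P10 cornea lay below lens 3.35-fold and 3.97-fold (limma adjusted p = 0.000884 and 0.000200) and below tendon 3.88-fold and 3.45-fold (limma adjusted p = 0.000873 and 0.000835). Tendon and lens were not resolved, with log2 0.21 and -0.20 (limma adjusted p = 0.591 and 0.572).

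Omd and Aspn, further family members, adjoin Ogn on chromosome 13. The Ogn promoter is shown because this gene alone was high in lens. It covers chr13:49607765-49608064 (GRCm38.p6, plus strand, RefSeq). Capitals mark 2 overlapping TATA matches at positions -229 to -222 from the gene start, far from the usual place of a TATA box, and 4 E-boxes, and no GC box, AP-1 site or SMAD box was found in this window.
Ogn: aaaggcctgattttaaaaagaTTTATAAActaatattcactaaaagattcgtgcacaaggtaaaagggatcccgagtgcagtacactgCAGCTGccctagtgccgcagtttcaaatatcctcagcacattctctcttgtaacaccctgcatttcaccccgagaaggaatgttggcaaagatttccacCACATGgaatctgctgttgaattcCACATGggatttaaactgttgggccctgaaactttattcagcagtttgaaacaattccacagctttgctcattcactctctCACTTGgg

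Chad (99913_at) was high on the tendon arrays alone. It read 54.6, 83.3 and 83.8 in adult cornea, 75.2 and 67.7 at P10, 97.0 and 104 in lens, and 5239 and 5617 in tendon. The 7 arrays outside tendon lay between 54.6 and 104, and the ages overlapped. Tendon exceeded adult cornea 61.3-fold (log2 -5.94 ± 0.20 SE for cornea minus tendon, limma adjusted p = 3.38e-08), P10 cornea 62.3-fold (limma adjusted p = 7.79e-08) and lens 46.7-fold (limma adjusted p = 6.93e-08). The first ran from log2 -5.32 to -6.21 over 10 other limma settings. Between ages the difference was log2 0.02 (95% interval -0.43 to 0.48, limma adjusted p = 0.985). Cornea minus lens was log2 -0.39 for adult and -0.41 for P10 cornea (limma adjusted p = 0.135 and 0.148), and the second passed with quantile normalization (limma adjusted p = 0.0435) and median centring (limma adjusted p = 0.0481). Of 8 cartilage markers 6 were on the array, and they did not move together: Matn1 read 91.7 and 105 in tendon and 694 to 878 in adult cornea, while Col9a1 read 343 and 387 in tendon and 83.3 to 197 in adult cornea. The part of cartilage cells in the Chad level was not tested.

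The Chad promoter, chr11:94564797-94565096 (GRCm38.p6, plus strand, RefSeq), is shown because it is the 1 family promoter at hand with a TATA match at the usual distance, 28 to 23 bases before the start. Capitals also mark a GC box at -108 to -103 and an E-box at -49 to -44.
Chad: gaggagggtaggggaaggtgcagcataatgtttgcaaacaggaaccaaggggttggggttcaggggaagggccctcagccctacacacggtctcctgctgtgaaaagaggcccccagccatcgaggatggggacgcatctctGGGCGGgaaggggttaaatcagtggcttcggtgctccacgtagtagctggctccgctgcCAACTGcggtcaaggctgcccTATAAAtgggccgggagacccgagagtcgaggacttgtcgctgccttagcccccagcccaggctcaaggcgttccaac
The Bgn promoter at chrX:73483351-73483650 held 3 GC boxes, 2 of them overlapping, and 1 E-box, with 63.7% G or C. Motif matches describe these windows only.

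Between adult and P10 cornea, 4 of the 9 tested probe sets, of the 3 genes Bgn, Lum and Ogn, were called, all lower in the adult. Over all probe sets 4.57% were called, and 3.88% were lower. The median log2 difference was -1.12 over the 9 and -0.13 over all probe sets. Quantile normalization, trimmed mean scaling and median centring moved the latter to 0.02, -0.01 and 0.06, and the 8 differences of Dcn, Bgn, Lum, Kera, Fmod and Ogn stayed negative under each. The count rested on single arrays: it was 1 without P10 replicate 1 or 2 and lay between 1 and 5 over all fits without 1 array. The summed epithelial markers overlapped between the ages, and of the 9 tested 0 were called by limma, with 1 at an unadjusted p under 0.05. Within that sum 2 keratin genes did not overlap. Krt14 read 759 to 1067 in the adult and 1648 and 1375 at P10, and Krt15 612 to 1139 and 2345 and 2146. In contrast to the epithelial sum, 4 melanocyte markers summed to 503 to 653 in the adult and 1246 to 3509 at P10. Col8a1, the 1 of 5 corneal endothelial markers on the array, read 61.3 to 86.3 in the adult and 437 and 466 at P10 (log2 -2.41, limma adjusted p = 0.000216). Vascular endothelial markers, 6 in all, summed to 261 to 389 in the adult and 292 to 431 at P10, where Pecam1 was below 0 on both arrays, and of the 4 tested 3 were lower at an unadjusted p under 0.05 by limma and 1, Cdh5, was called (adjusted p = 0.00368). The part of these cell types in the age differences was not tested.

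**Figure D3:**
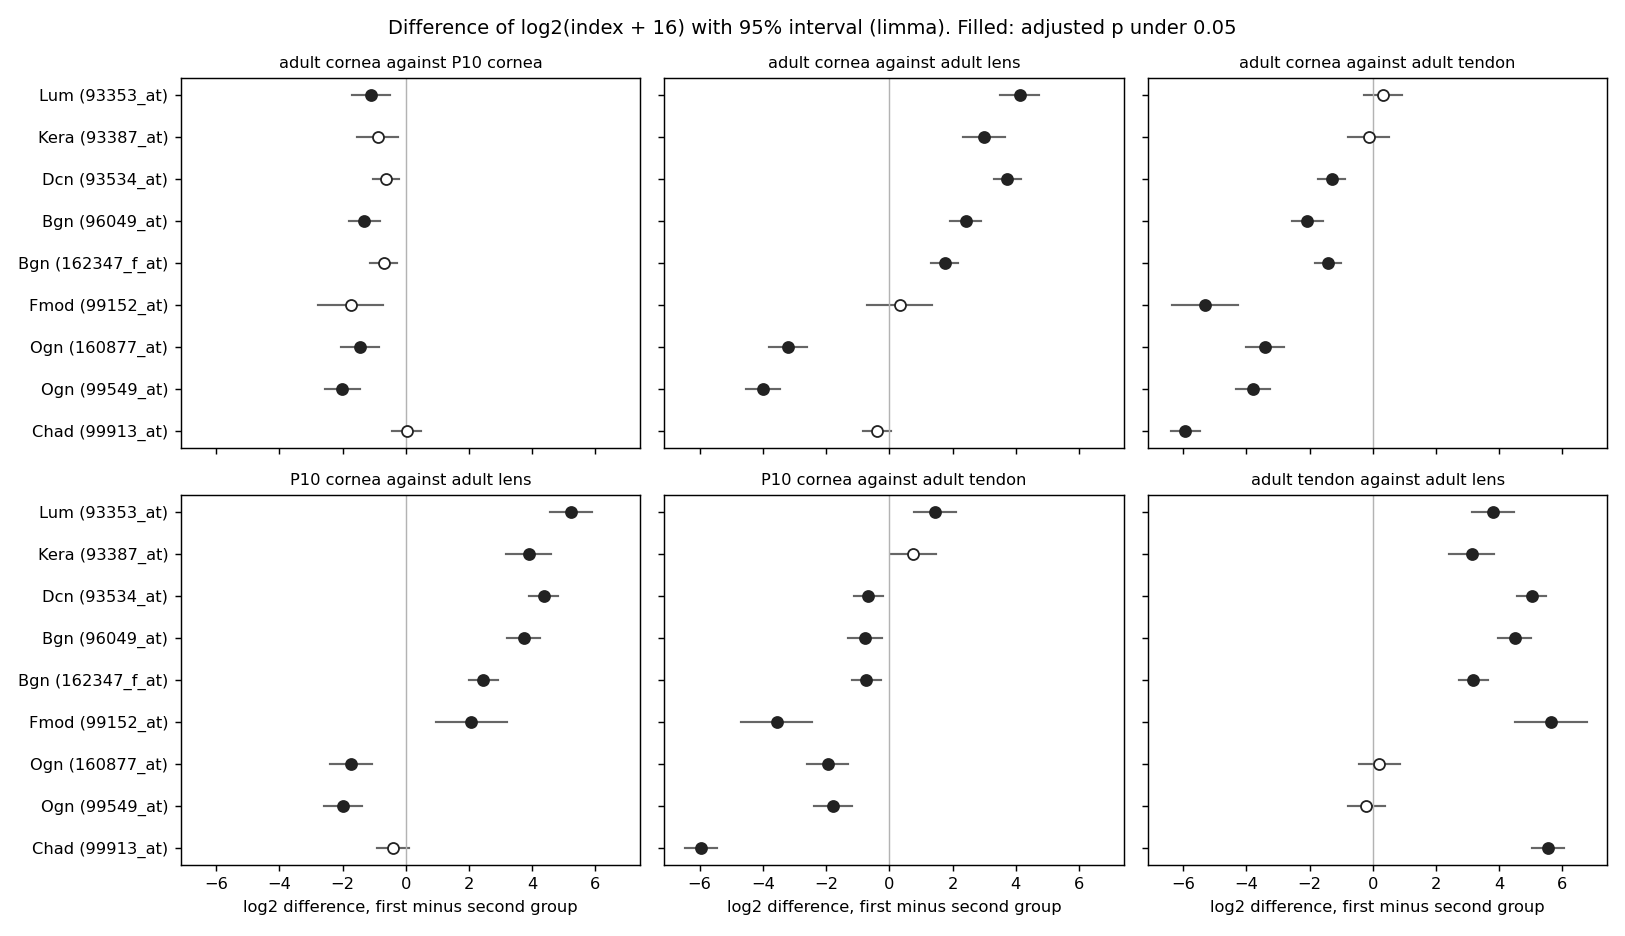
Log2 differences between groups (limma, on log2(index + 16)) with 95% intervals for the 9 tested probe sets in the 6 comparisons. Filled symbols passed at an adjusted p under 0.05. Tendon-high Fmod, Ogn and Chad lie far to the negative side in adult cornea against tendon (log2 -3.40 to -5.94), where Lum and Kera sit at 0.32 and -0.14.

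Against tendon, 7 of 9 probe sets were lower in adult cornea, while 35.0% of all probe sets were called in either direction and 18.9% were lower. These belonged to Dcn, Bgn, Fmod, Ogn and Chad, with a median log2 difference of -2.08 over the 9 and 0.01 over all. P10 cornea, tested against the same 2 tendon arrays, had 8 calls, 7 lower and Lum higher, where 26.7% of all probe sets were called, 11.0% lower and 15.7% higher. The median over the 9 was -0.76 there against 0.13 over all. This count was sensitive to single arrays, with 4 or 5 calls without P10 replicate 1 or 2 or tendon replicate 1 or 2, and 3 by the methods' t-test. Summed skeletal muscle, adipocyte and leukocyte markers were also highest on the tendon arrays, as were vascular endothelial markers (564 to 608). The adipocyte sum (3 genes) was 3781 to 4081 there against at most 702 in cornea. The leukocyte sum (6 genes) was 1232 to 1301 against at most 591 in cornea. Not every gene followed its sum. Of 5 tested leukocyte markers 2 were called lower in adult cornea than in tendon. Ptprc read 92.2 to 129 in adult cornea and 109 and 131 in tendon, and Cd68 83.5 to 111 and 82.2 and 110. Lep, in the adipocyte sum, read 1330 and 1620 in lens and 1181 and 814 in tendon. The part of these cell types in the tendon levels was not tested.

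Against lens, 7 of 9 probe sets were called for adult cornea, 5 higher (Dcn, both of Bgn, Lum and Kera) and the Ogn pair lower, where 51.2% of all probe sets were called, 27.2% higher and 24.0% lower. For P10 cornea, which shares the lens arrays, 8 were called with Fmod added, 6 higher and 2 lower, against 51.0% of all, 31.6% higher and 19.4% lower. Tendon exceeded lens for 7, those of Dcn, Bgn, Lum, Kera, Fmod and Chad, with 49.0% of all probe sets called and 26.4% higher. The medians over the 9 were log2 1.75, 2.45 and 3.80 in these 3 comparisons, against 0.08, 0.25 and 0.07 over all probe sets.

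**Figure D4:**
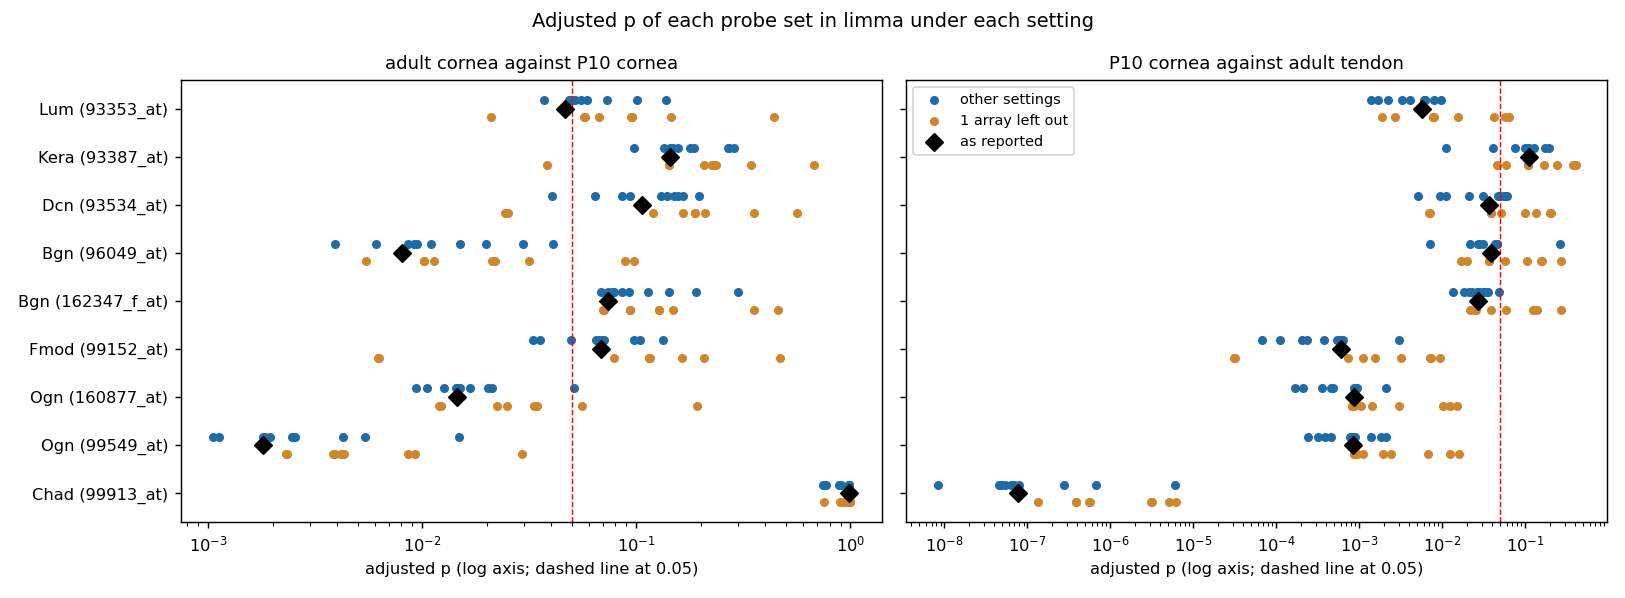
Limma adjusted p (log axis) of the 9 tested probe sets for adult against P10 cornea (left) and P10 cornea against tendon (right), as reported, in each fit without 1 array and in the other limma settings. The dashed line marks 0.05. By age only Ogn (99549_at) stays under the line throughout, and against tendon Fmod, both Ogn probe sets and Chad do.

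For each gene the 3 other genes with the most similar pattern over the 9 arrays were listed by Pearson's r of log2 indices, as a description of 4 tissues with replicates. Lum was most like Rflnb (r = 0.993), Kera (0.992) and Ldb1 (0.990), and Kera most like Lum, Rbms1 (0.988) and Ccnl2 (0.986). Dcn was most like Abcc3 (0.993), Klf10 (0.992) and Col1a1 (0.992), which encodes the main chain of the type I collagen that decorin binds. For Bgn these were Adsl (0.994), Psapl1 (0.991) and Fn1 (0.990), the gene of fibronectin. Fmod resembled Apbb2 (0.992), Nfix (0.992) and Pabpc4 (0.988), and Ogn resembled Qk (0.986), Pax9 (0.982) and Nnat (0.980). Chad was closest to Csrp3 (0.998), Ckmt2 (0.998) and Cox7a1 (0.997), all genes of striated muscle, which rose on the tendon arrays with the summed muscle markers given above. Mean indices were below 0 for Csrp3 in adult and P10 cornea (-1.07 and -1.37) and for Cox7a1 in adult cornea (-0.476). In lens they were below 0 for Abcc3 (-516) and Adsl (-21.0). Values below 0 entered r as 0.

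The collagens that these proteoglycans bind moved with age as well. Of 13 listed collagen genes 11 were tested, and 10 fell from P10 to adult cornea, where 3.88% of all probe sets were called lower. This count was the same under quantile, trimmed mean and median scaling. Col1a1 was at 2279 ± 37.8 (SD, n = 3) in adult and 6452 ± 445 (SD, n = 2) in P10 cornea, 41.7 ± 2.65 in lens and 8527 ± 561 in tendon, and its fall was 2.81-fold (limma adjusted p = 0.000344). Col1a2 and Col3a1 fell 3.82-fold and 12.3-fold (limma adjusted p = 0.0142 and 0.000163). Relative to tendon 9 of the 11 were lower in adult cornea, Col3a1 by 31.5-fold (limma adjusted p = 6.30e-07), where 18.9% of all probe sets were lower. At P10 only 3 differed from tendon, Col5a1 and Col14a1 upward and Col3a1 downward, where 26.7% of all probe sets were called. Under quantile and trimmed mean scaling 2 were upward and 2 downward, and under median centring 2 and 3. In lens, 10 of 11 were below P10 cornea and 10 below tendon, and 8 were below adult cornea. Of all probe sets 31.6%, 26.4% and 27.2% were called below these groups in lens. Col12a1, a fibril-associated collagen, was 1.90-fold lower in adult cornea than in lens (limma adjusted p = 0.00865).

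Genes that build the sugar chains were also listed. Of 20 listed keratan sulfate synthesis genes 11 were tested and 0 passed between ages by limma, where 4.57% of all probe sets did, with 1 at an unadjusted p under 0.05 and 0 by the methods' t-test. Papss2, a synthase of the sulfate donor, was at 177 ± 57.5 (n = 3) in adult cornea, 367 ± 67.7 (n = 2) at P10, 19.8 ± 8.43 in lens and 75.0 ± 0.648 in tendon. It was 2.05-fold above tendon and 5.28-fold above lens in adult cornea (limma adjusted p = 0.0162 and 6.54e-05), and its age difference of log2 -1.03 did not pass (limma adjusted p = 0.0771). Of the 11 tested genes, 3 were called higher and 3 lower in adult cornea than in lens, where 51.2% of all probe sets were called. St3gal3 was 4.34-fold lower there than in lens (limma adjusted p = 0.00881). Against tendon 2 were called higher and 1 lower in adult cornea, where 35.0% of all probe sets were called. Fut8, a fucosyltransferase of N-glycans, was 2.85-fold lower in adult cornea than in tendon (limma adjusted p = 0.00209). Of 25 chondroitin and dermatan sulfate genes only 4 were tested, and 0 passed between ages by limma, at an unadjusted p under 0.05 or by the methods' t-test. Ugdh, which makes the precursor UDP-glucuronate, was 3.80-fold higher in adult cornea than in lens (limma adjusted p = 0.000113). Slc26a2, a sulfate transporter, was 2.54-fold higher in adult cornea than in tendon (limma adjusted p = 0.0114) and 2.53-fold lower than in lens (limma adjusted p = 0.00796).

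Other family members were sparsely covered. Of 12 listed only Omd and Epyc had probe sets of their own, and neither passed the filter. Omd (osteomodulin) read 54.5 and 69.0 in tendon and 1.63 to 8.36 on the other 7 arrays. Epyc (epiphycan), the chromosomal neighbour of Kera, read 22.5 and 63.5 in tendon and at most 6.09 elsewhere. Both were above the other arrays on the tendon arrays only, as Chad was, with levels under the array medians and no test.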

How the data were processed

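The deposited intensity values are linear, 1 index for each probe set and array. The design text of the series says that the authors ran Microarray Suite 5.0 for expression and detection, followed by dChip, which normalises on an invariant set and fits a model-based index. The submitters' processing notes name MAS5, and the sources used here do not say which program made the deposited values. Of 12422 non-control probe sets, 10833 carry 1 gene symbol, 396 several and 1193 none, from the platform annotation, updated through Entrez identifiers where the reference table allowed (10817 matched). Values below 0 were set to 0, 16 was added and log2 taken. Probe sets at or above the median of the array on 2 or more of the 9 arrays were tested (8154). Group means over all 9 arrays were fitted with limma 3.58.1 in R 4.3.3, with a mean-variance trend, two-sided p-values and Benjamini-Hochberg adjustment within a comparison. Groups of 2 arrays borrow their spread from the others, precision is limited by the number of arrays, and p-values measure the spread between preparations. Within-array differences of gene pairs were tested by exact permutation, adjusted over 8 tests.

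The 7 genes, the context and marker lists (208 genes, 147 on the array) and the tests were chosen with earlier results of these data known. All 7 genes and their probe sets are named. From each context list up to 4 called genes with the smallest adjusted p per comparison could be named, and Col1a1, Col1a2 and Col3a1 always, each through the probe set of highest mean. Promoters come from a RefSeq table for GRCm38.p6, which matched 5 of the 7 genes. Simulated data of 8154 probe sets had 100 probe sets changed 2-fold and 100 changed 4-fold in each comparison. For adult against P10 cornea, 51% of 2-fold and 91% of 4-fold changes were recovered. Recovery was 32% and 91% for adult cornea against lens, and 48% and 93% against tendon. It was 33% and 85% for P10 cornea against lens, 44% and 87% against tendon, and 43% and 90% for tendon against lens. The real arrays gave more calls, from 373 probe sets for adult against P10 cornea to 4175 for adult cornea against lens. The Benjamini-Hochberg threshold depends on how many probe sets change, so these percentages hold for the simulated setting only. They do not rank the comparisons by power. Alternatives were other pseudocounts, filters and scalings, no variance trend, a replicate block, fits of only the groups compared, the methods' t-test and leaving out each array. A call by the methods' t-test needed an unadjusted Welch p under 0.05. It also needed mean indices at least 2-fold and at least 100 units apart.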

Additional observations from a re-analysis of the deposited data

How the results depend on the processing

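Over 20 alternative settings, 1004 of 1080 results for single probe sets kept their direction and their side of the threshold, 51 lost and 16 gained the call, and 9 turned sign, of which 0 had been called. Chad by age (log2 0.02) became -0.061 with the replicate block, and lay between -0.061 and 0.19 without 1 array, below 0 without adult cornea replicate 2 or 3 or P10 replicate 2. Kera in adult cornea against tendon (-0.14) became 0.088 with the replicate block and without adult cornea replicate 3, and lay between -0.43 and 0.088 without 1 array. Fmod in adult cornea against lens (0.32) ran from -0.63 without lens replicate 2 to 1.28 without lens replicate 1. Ogn in tendon against lens ran from -0.11 to 0.53 for 160877_at (as reported 0.21, negative without lens replicate 2) and from -0.46 to 0.057 for 99549_at (as reported -0.20, positive without lens replicate 1). The cause was not tested. The number of called probe sets, 4 by age, lay between 1 and 5 without 1 array and between 3 and 6 in other settings. For P10 cornea against tendon, with 8, it lay between 4 and 8 without 1 array and was 3 with the methods' t-test. In the other 4 comparisons it stayed within 1.5 times. With the replicate number as a block, 3 were called by age, 9 for P10 cornea against tendon, and 7, 7, 8 and 7 in the others. Deviations of same-numbered arrays from their group means correlated at -0.363 to 0.201. In groups of 2 arrays the deviations mirror each other, so these values cannot decide whether same-numbered arrays share a batch. Among all probe sets, the calls by age were 373, with 79 to 425 without 1 array, those for P10 cornea against tendon 2174, with 782 to 2601, and those for adult cornea against tendon 2856, with 1379 to 3204. For adult cornea, P10 cornea and tendon against lens they were 4175 (2687 to 4437), 4156 (2622 to 4503) and 3994 (2527 to 4382). The methods' t-test gave 197, 1553 and 1371 calls for adult cornea against P10, lens and tendon. It gave 1220 and 899 for P10 cornea against lens and tendon, and 1383 for tendon against lens. By its Benjamini-Hochberg adjusted p alone, without the fold and difference criteria, 0, 218, 460, 2, 0 and 2 probe sets passed in the same order. By age, 15.3% of called probe sets were higher in the adult, and 26.7%, 26.7% and 29.2% with quantile, trimmed mean and median scaling. Median centring moved the share higher in P10 cornea from 62.0% to 48.3% against lens and from 58.7% to 45.7% against tendon.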

Other observations

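Among enzymes that cut these proteoglycans, 2 of 10 tested fell from P10 to adult cornea, where 4.57% of all probe sets were called: Htra1, a secreted serine protease, from 607 ± 26.9 at P10 to 190.3 ± 25.0 in the adult (3.03-fold, limma adjusted p = 0.00423), and Ctsk, cathepsin K, from 367 to 130.3 (2.65-fold, limma adjusted p = 0.00651). Against tendon, where 35.0% of all probe sets were called, 5 proteases were lower in adult cornea, Ctsk by 4.41-fold (limma adjusted p = 4.29e-05), and 2 were higher, among them Ctsl, cathepsin L (2.11-fold, limma adjusted p = 0.00488). Against lens, 6 of the 10 were called, where 51.2% of all probe sets were. Of 13 tested signalling partners, 7 were called against lens and 6 against tendon in adult cornea, and 1 fell with age, Erbb4, a receptor of the EGF receptor family, from 2276 to 309 (7.83-fold, limma adjusted p = 0.00181). Ccn2, a matricellular protein that binds decorin, was 17.1-fold lower in adult cornea than in tendon (limma adjusted p = 1.84e-06), and Igf1r, the receptor of insulin-like growth factor 1, was 2.62-fold higher (limma adjusted p = 0.00271).

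Of 15 other proteoglycans, 3 fell from P10 to adult cornea, where 3.88% of all probe sets were called lower. These were the glypican gene Gpc3 (2.56-fold, limma adjusted p = 0.00564), Tgfbr3 (2.08-fold, limma adjusted p = 0.0189) and the agrin gene Agrn (2.01-fold, limma adjusted p = 0.0363). The count was 3 under quantile and trimmed mean scaling and 2 under median centring. Sdc1, the cell-surface proteoglycan syndecan-1 of epithelia, was at 779 in adult cornea, 601 at P10, 7.24 in lens and 26.0 in tendon, 18.6-fold above tendon in the adult (limma adjusted p = 7.27e-07), alongside the epithelial markers. Srgn, the serglycin gene of blood cells, was 13.6-fold lower in adult cornea than in tendon (limma adjusted p = 3.70e-06), where the summed leukocyte markers were also lower.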
